A study of Mus musculus with 13 samples.

Results

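This account covers 9 genes of iron storage and heme handling, Fth1, Ftl1, Tfrc, Trf, Steap3, Hmox1, Blvrb, Aco1 and Ireb2, followed in microglia of newborn mice. They were taken as the rows of the count table whose Ensembl gene ID maps to these symbols, whatever their values, and all 9 were found among 55487 genes. The libraries hold RNA of microglia, the resident macrophages of the brain, selected from whole brain with magnetic beads against CD11b, a surface protein that other myeloid cells carry as well. The groups were pups whose dams underwent maternal immune activation (MIA, 5 libraries) and control pups (CON, 5 libraries). Both groups are dated to postnatal day 4 in the titles, and to postnatal days 3 to 5 in the series text. Another 3 libraries, MIA 6, MIA 7 and CON 6, carry a mark of exclusion in their titles. Their values are given here, but they entered no main test. The sources used here give neither the agent and time of the immune activation, nor mouse strain, genotype, sex and litter, nor the reason for the exclusions.

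Iron enters most cells bound to transferrin (Trf), which docks on the transferrin receptor (Tfrc) and is taken into endosomes, where Steap3 reduces the iron so that it can leave. Iron that is not used is stored inside ferritin, a hollow shell built from heavy chains (Fth1), which oxidise iron, and light chains (Ftl1), which help to form the mineral core. Macrophages also gain iron from heme, which heme oxygenase (Hmox1) opens into biliverdin, iron and carbon monoxide, and biliverdin reductases such as Blvrb reduce biliverdin further. The sensors Aco1 (IRP1) and Ireb2 (IRP2) bind iron-responsive elements, short RNA hairpins, when iron is low, which blocks translation of ferritin and protects the transferrin receptor mRNA from decay.

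The hairpins that join these genes are shown because ferritin and Tfrc carry them at opposite ends of the mRNA. In GENCODE transcripts of mouse build GRCm38, UTRs were searched on the sense strand for an unpaired C, then 5 bases, the loop CAGTGN and 5 bases that pair with those before the loop, G-T pairs allowed. The search was chosen after the expression values had been seen. Capitals mark the loop, and the letters are the DNA sense of the transcript, 5′ to 3′. Fth1 and Ftl1 each had 1 match in the 5′ UTR, and Tfrc had 4 in the 3′ UTR.
Fth1 5′ UTR, chr19:9982732-9982760, plus strand: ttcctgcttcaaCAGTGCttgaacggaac
Ftl1 5′ UTR, chr7:45459779-45459807, minus strand: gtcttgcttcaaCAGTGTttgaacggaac
Tfrc 3′ UTR, chr16:32631219-32631247, plus strand: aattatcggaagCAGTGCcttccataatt
Tfrc 3′ UTR, chr16:32631598-32631626, plus strand: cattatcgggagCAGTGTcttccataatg
Tfrc 3′ UTR, chr16:32631663-32631691, plus strand: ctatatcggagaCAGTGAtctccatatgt
Tfrc 3′ UTR, chr16:32631710-32631738, plus strand: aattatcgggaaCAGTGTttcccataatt

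The Fth1 and Ftl1 hairpins matched at 26 of 29 bases, while Fth1 matched the Tfrc hairpins at 9 to 11 bases and Ftl1 matched them at 10 to 13. The 4 Tfrc hairpins matched each other at 18 to 25 bases. All these counts include the unpaired C and the CAGTG of the loop, which the search itself required of every hairpin. Such a match stood in the 5′ UTR of 31 of 20899 genes (0.148%) and in the 3′ UTR of 129 of 21685 genes (0.595%). Slc40a1, the iron exporter ferroportin, which is listed below, also had a match in the 5′ UTR. A match describes the letters and is not a measurement of binding.

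Libraries held 25387055 to 35593541 counts. Levels are given as CPM, a gene's counts relative to the library's total as scaled by TMM, and a gene was called when edgeR's quasi-likelihood test gave a Benjamini-Hochberg adjusted p below 0.05 over 15511 genes. CON 1 and CON 2 stood apart from the other libraries. Summed over the 9 erythroid markers in the table, of which 7 could be tested and 0 were called, they held 61.4 and 80.3 CPM, while MIA 1 to MIA 5 held 1745 to 3056 CPM and CON 3 to CON 5 held 1163 to 2199 CPM. At an unadjusted p below 0.05 the number of erythroid markers was likewise 0, and DESeq2 and limma-voom called 0. Genes that respond to tissue dissociation summed to 6202 to 7461 CPM in MIA 1 to MIA 5, against 2611 CPM in CON 1, 2413 CPM in CON 2 and 9135 to 10468 CPM in CON 3 to CON 5. Defining microglia markers were abundant in all 13 libraries, but 9 of 9 were lower in MIA, with sums of 14442 to 18499.6 CPM in MIA 1 to MIA 5 and 21906 to 28124 CPM in CON 1 to CON 5. Endothelial markers went the other way, 10 of 10 higher, with sums of 2564 to 4338 CPM in MIA libraries and 897 to 1423 CPM in CON libraries. Neuronal markers were also higher, 3 of 6 called, with sums of 94.7 to 136 CPM in MIA libraries and 50.2 to 67.6 CPM in CON libraries. The excluded libraries lay outside the range of their own label group in the microglia and endothelial sums: MIA 6 and MIA 7 held 21067 and 21623 CPM of microglia and 2175 and 2379.5 CPM of endothelial markers, and CON 6 held 19234 and 2708 CPM. No listed marker of any cell type was at 0 in every library. The part of these shifts in the results below was not tested.

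Of the 9 genes, 5 were called. Fth1 and Steap3 were higher in MIA, and Ftl1, Trf and Hmox1 were lower, while Tfrc, Blvrb, Aco1 and Ireb2 did not pass. Of all genes tested, 10.3% were called, 5.75% higher and 4.58% lower in MIA, 892 and 710 genes, or 1036 and 496 genes when scaled by total counts. All 9 genes passed the filter on low counts, and their median log2 fold change was -0.03, beside -0.009 over all genes tested. The MIA and CON libraries did not overlap in 3 of the 9, Fth1, Steap3 and Trf, and in 9.95% of all genes (5.59% with MIA higher and 4.36% with MIA lower). These 5 calls rest on the choice of libraries: with all 13 libraries 1 of the 9 passed, Fth1, and 4.22% of all genes did. Without CON 1 and CON 2, 6 of the 9 passed, beside 12.2% of all genes, and with all 13 libraries but those 2, 0 of the 9 passed in edgeR, beside 0.561%. In that last fit 6 of the 9 had an unadjusted p below 0.05, as did 3152 of all 16050 genes tested. No other tool was run on that set. On the 10 retained libraries, limma-voom called 5 of the 9 and 10.8% of all genes. As RNA was measured in bulk, fewer cells of a type and less RNA per cell cannot be told apart.

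**Figure D1:**
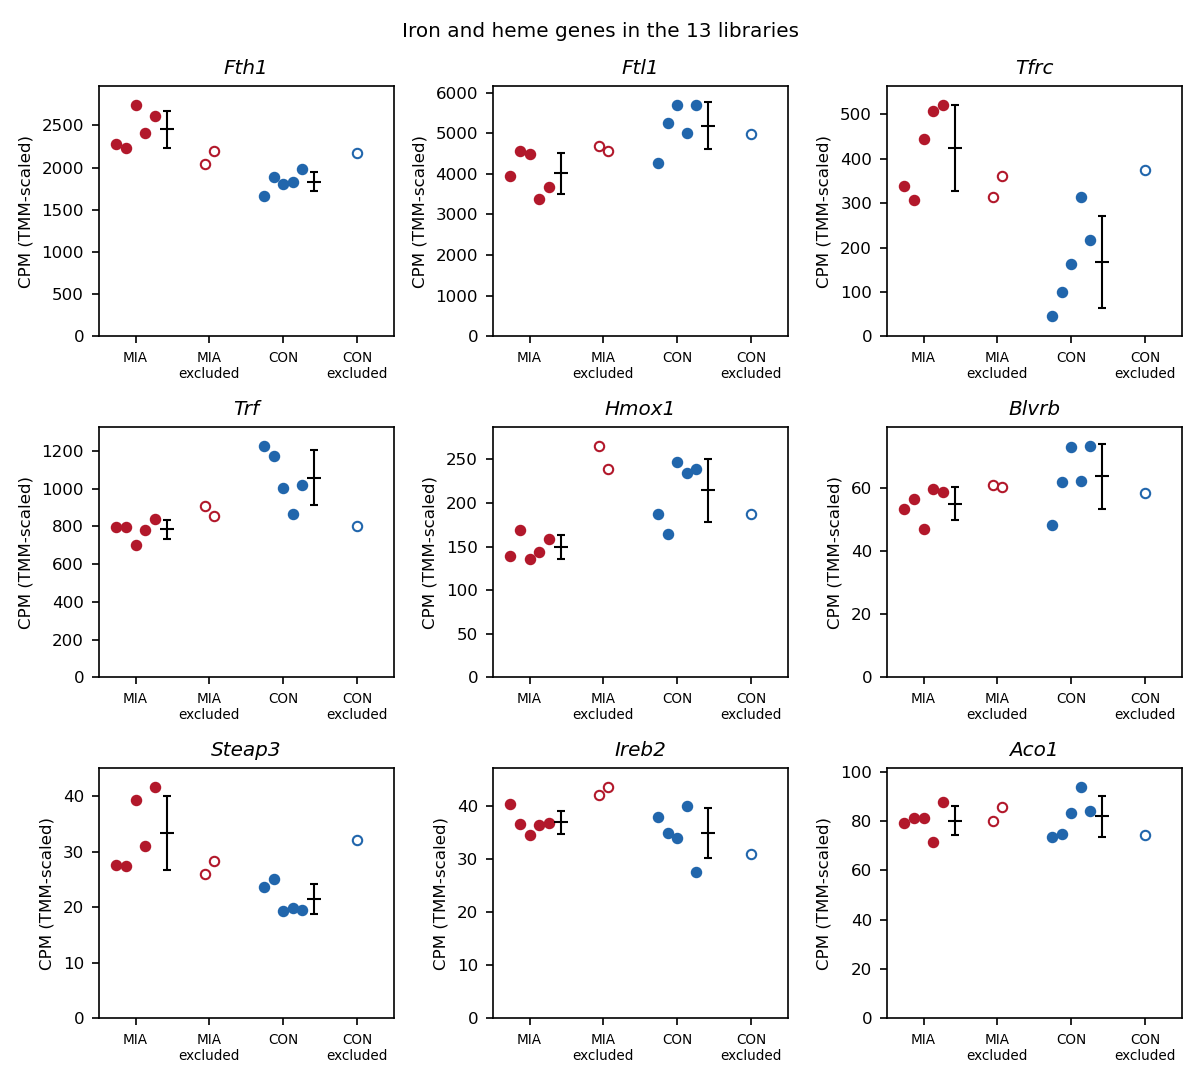
CPM of each of the 9 genes in every library, 1 panel per gene on its own linear axis, MIA left of CON, with filled points for the 5 retained libraries a group, open points for excluded ones, and bars for the mean and SD of the retained libraries. Fth1 and Steap3 stand higher and Trf lower in all 5 MIA libraries, and CON 1, at 46.6 CPM, is the lowest point of Tfrc.

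The ferritin chains moved in opposite directions. Fth1 (ENSMUSG00000024661.7, chromosome 19), the heavy chain, had 2275, 2233, 2747, 2414 and 2607 CPM in MIA 1 to MIA 5, against 1668, 1883, 1808, 1828 and 1986 CPM in CON 1 to CON 5. All MIA libraries lay above all CON libraries. The means were 2455 ± 219 CPM in MIA and 1835 ± 116 CPM in CON (SD, n = 5 each), a log2 fold change of 0.42 ± 0.08 (SE) or 1.34-fold, with an edgeR adjusted p of 0.00447. The excluded libraries blurred this gap, as MIA 6 and MIA 7 had 2043 and 2201 CPM and CON 6 had 2177 CPM. Fth1 was called with all 13 libraries too (log2 fold change 0.32, edgeR adjusted p = 0.0439), but not when CON 1 and CON 2 were also left out (0.27, adjusted p = 0.123).

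Ftl1 (ENSMUSG00000050708.16, chromosome 7), the light chain, had 3953, 4563, 4487, 3388 and 3685 CPM in MIA 1 to MIA 5, against 4277, 5254, 5690, 5015 and 5705 CPM in CON 1 to CON 5. The groups overlapped through CON 1 alone, which lay below MIA 2 and MIA 3. Ftl1 averaged 4015 ± 507 CPM in MIA and 5188 ± 588 CPM in CON (SD, n = 5 each), with a log2 fold change of -0.37 ± 0.10 (SE) and an edgeR adjusted p of 0.0396. Of the 5 calls it was the only one lost when 1 library was left out. It was lost in 7 of those 10 fits, the ones without MIA 1, MIA 4, MIA 5, CON 2, CON 3, CON 4 or CON 5, and edgeR adjusted p over all 10 ran from 0.00742 to 0.131. The processed copy Ftl1-ps1, with which Ftl1 could share reads, held 1.33 ± 0.276% of the Ftl1 level in MIA and 1.28 ± 0.187% in CON (SD, n = 5 each).

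The heavy and light chains were also set against each other within each library. The ratio of Fth1 to Ftl1 CPM was 0.575, 0.489, 0.612, 0.712 and 0.708 in MIA 1 to MIA 5, against 0.390, 0.358, 0.318, 0.364 and 0.348 in CON 1 to CON 5. Every MIA ratio lay above every CON ratio. The mean was 0.619 ± 0.0941 in MIA and 0.356 ± 0.0261 in CON (SD, n = 5 each), 1.74 times higher in MIA, given here without a test. In the excluded libraries the ratio was 0.437 and 0.483 in MIA 6 and MIA 7 and 0.437 in CON 6, which places all of them between the 2 groups.

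**Figure D2:**
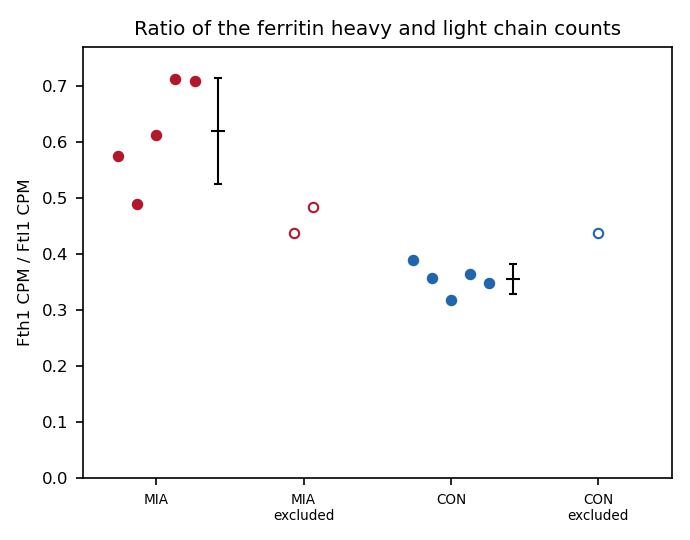
Ratio of Fth1 to Ftl1 CPM in each library, MIA left of CON, with filled points for retained and open points for excluded libraries and bars for the mean and SD of the 5 retained libraries. Retained MIA libraries run from 0.489 to 0.712 and retained CON libraries from 0.318 to 0.390, and the 3 excluded libraries lie between them.

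Of the uptake genes, Trf was lower and Steap3 higher in MIA, while Tfrc did not pass. Trf (ENSMUSG00000032554.15, chromosome 9) encodes transferrin, which in the brain is made mainly by oligodendrocytes and the choroid plexus. It had 799, 798, 699, 781 and 840.4 CPM in MIA 1 to MIA 5, against 1228, 1173, 1001, 863 and 1021 CPM in CON 1 to CON 5. All MIA libraries lay below all CON libraries, with CON 4 nearest to them. Trf averaged 783 ± 52 CPM in MIA and 1057 ± 146 CPM in CON (SD, n = 5 each), a log2 fold change of -0.43 ± 0.10 (SE) with an edgeR adjusted p of 0.0116. MIA 6 and MIA 7, at 907 and 855 CPM, lay above the 5 retained MIA libraries, and CON 6, at 804 CPM, lay below every retained CON library. With all 13 libraries the log2 fold change was -0.32 (edgeR adjusted p = 0.0674). The summed markers of the cell types known to make transferrin overlapped between the groups: the oligodendrocyte lineage summed to 174 to 275 CPM in MIA and 174 to 233 CPM in CON, and the choroid plexus to 752 to 12830 CPM in MIA and 27.3 to 15737 CPM in CON. Within the oligodendrocyte lineage list, 1 of 11 markers was called, Pdgfra of its progenitors, named after its values were seen, which was higher in MIA (log2 fold change 1.10 ± 0.19, edgeR adjusted p = 0.00263). The list was mixed in direction, from -0.47 for Mag (edgeR adjusted p = 0.22) to 1.10 for Pdgfra, with a median of 0.50. Its most abundant marker, Cnp, had a log2 fold change of -0.34 that did not pass (edgeR adjusted p = 0.123). Microglia marker sums did not overlap and were lower in MIA, as Trf was, at 14442 to 18499.6 CPM against 21906 to 28124 CPM in CON. Endothelial and neuronal sums did not overlap either but were higher in MIA. The part of any of these cells in the Trf values was not tested.

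Tfrc (ENSMUSG00000022797.16, chromosome 16), the receptor for transferrin, had 339, 307, 444, 507 and 522 CPM in MIA 1 to MIA 5, against 46.6, 99.9, 163, 313 and 216 CPM in CON 1 to CON 5. The groups overlapped only in that CON 4 lay above MIA 2, and the 2 lowest values were those of CON 1 and CON 2. Tfrc averaged 424 ± 97.1 CPM in MIA and 168 ± 103 CPM in CON (SD, n = 5 each). The log2 fold change of 1.34 ± 0.46 (SE) was the largest of the 9 genes, but its edgeR adjusted p was 0.11. It passed with DESeq2, which called 14% of all genes (log2 fold change 1.33, adjusted p = 0.0161), and in edgeR without CON 4, where 8.6% were called (1.69, adjusted p = 0.0462). Without CON 1 and CON 2 the log2 fold change was 0.87 (edgeR adjusted p = 0.0713). MIA 6 and MIA 7 had 314 and 360.2 CPM, and CON 6 had 374 CPM, above every retained CON library.

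Tfrc is abundant in red cell precursors and in brain endothelium, so the sums of those markers are set beside it. CON 1 and CON 2, lowest in Tfrc, were also lowest in erythroid markers, at 61.4 and 80.3 CPM, and in endothelial markers, at 897 and 1079 CPM. MIA 3 was highest in both sums, at 3056 CPM erythroid and 4338 CPM endothelial, and below only MIA 4 and MIA 5 in Tfrc. CON 6, with 2595 CPM of erythroid and 2708 CPM of endothelial markers, was the highest control library in all 3. The part of these cells in the Tfrc values was not tested.

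**Figure D3:**
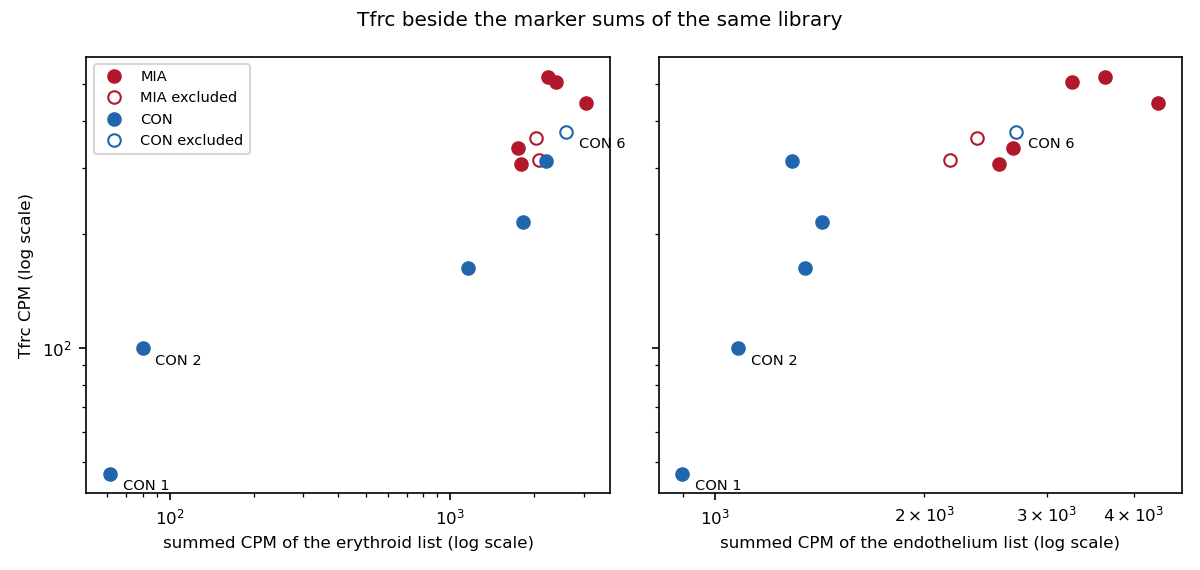
Tfrc CPM in each of the 13 libraries against the summed CPM of erythroid markers (left) and endothelial markers (right), on log axes, with MIA and CON in separate colours and excluded libraries as open points. CON 1 and CON 2 lie at the low end of both marker sums and of Tfrc, and CON 6, with 374 CPM of Tfrc, lies among the MIA libraries.

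Steap3 (ENSMUSG00000026389.16, chromosome 1), the endosomal ferrireductase, was one of the less abundant of the 9 genes. It had 27.6, 27.4, 39.2, 31 and 41.7 CPM in MIA 1 to MIA 5, against 23.6, 25.1, 19.3, 19.9 and 19.5 CPM in CON 1 to CON 5. No library overlapped, though MIA 2 lay only slightly above CON 2. Steap3 averaged 33.4 ± 6.67 CPM in MIA and 21.5 ± 2.69 CPM in CON (SD, n = 5 each), a log2 fold change of 0.64 ± 0.14 (SE) or 1.56-fold, with an edgeR adjusted p of 0.0108. MIA 6 and MIA 7 had 25.9 and 28.3 CPM, while CON 6 had 32.1 CPM, above 3 of the 5 retained MIA libraries. The call was lost with all 13 libraries, at a log2 fold change of 0.44 (edgeR adjusted p = 0.0925).

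Of the heme-degrading enzymes, Hmox1 was lower in MIA and Blvrb did not pass. Hmox1 (ENSMUSG00000005413.8, chromosome 8), the inducible heme oxygenase, had 139, 169, 136, 144 and 159 CPM in MIA 1 to MIA 5, against 188, 165, 247, 235 and 239 CPM in CON 1 to CON 5. The groups overlapped by a single pair, CON 2 lying just below MIA 2. Hmox1 averaged 149 ± 14.3 CPM in MIA and 215 ± 36.1 CPM in CON (SD, n = 5 each), a log2 fold change of -0.52 ± 0.11 (SE) with an edgeR adjusted p of 0.0103. Without CON 1 and CON 2, its 2 lowest retained control libraries, the log2 fold change was -0.70 (edgeR adjusted p = 0.000443). The excluded libraries ran against this difference, since MIA 6 and MIA 7 had 266 and 239 CPM and CON 6 had 187 CPM. With all 13 libraries the log2 fold change was -0.23 (edgeR adjusted p = 0.489). Hmox1 is a stress-induced gene, and the dissociation gene sums were also higher in MIA 6 and MIA 7, at 8318 and 8386 CPM, than in MIA 1 to MIA 5, at 6202 to 7461 CPM. Retained controls had sums of 2611 and 2413 CPM (CON 1 and CON 2) and 9135 to 10468 CPM (CON 3 to CON 5). MIA 1 to MIA 5 had higher sums than CON 1 and CON 2 but, except for MIA 2 above CON 2, lower Hmox1. CON 6 paired a high dissociation sum, 9496 CPM, with 187 CPM of Hmox1. The part of dissociation in the Hmox1 values was not tested.

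Blvrb (ENSMUSG00000040466.16, chromosome 7), a biliverdin and flavin reductase that red cells also hold in plenty, had 53.2, 56.3, 46.8, 59.6 and 58.6 CPM in MIA 1 to MIA 5, against 48.1, 61.9, 72.7, 62 and 73.3 CPM in CON 1 to CON 5. CON 1 was the only retained control library within the range of MIA 1 to MIA 5. Blvrb averaged 54.9 ± 5.13 CPM in MIA and 63.6 ± 10.3 CPM in CON (SD, n = 5 each), a log2 fold change of -0.21 ± 0.11 (SE) with an edgeR adjusted p of 0.307. It passed without CON 1, where 14.4% of all genes did (log2 fold change -0.30, edgeR adjusted p = 0.046), and without CON 1 and CON 2 (-0.35, adjusted p = 0.0368). MIA 6 and MIA 7 had 60.7 and 60.2 CPM and CON 6 had 58.3 CPM.

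The sensors did not pass in any fit that was run. Ireb2 (ENSMUSG00000032293.8, chromosome 9) had 40.4, 36.5, 34.5, 36.4 and 36.7 CPM in MIA 1 to MIA 5, against 37.9, 34.8, 33.9, 39.9 and 27.6 CPM in CON 1 to CON 5. CON 5 and, narrowly, CON 3 lay below the MIA range. The log2 fold change was 0.08 ± 0.10 (SE), with means of 36.9 ± 2.14 CPM in MIA and 34.8 ± 4.69 CPM in CON (SD, n = 5 each) and an edgeR adjusted p of 0.708. MIA 6 and MIA 7 had 42.1 and 43.6 CPM, the 2 highest values of the series, and CON 6 had 31 CPM.

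Aco1 (ENSMUSG00000028405.9, chromosome 4), which is an aconitase enzyme when it holds an iron-sulfur cluster, had 79.2, 81.1, 81.3, 71.6 and 87.8 CPM in MIA 1 to MIA 5, against 73.7, 74.6, 83.3, 94 and 83.9 CPM in CON 1 to CON 5. The ranges of the groups overlapped widely. Aco1 averaged 80.2 ± 5.8 CPM in MIA and 81.9 ± 8.28 CPM in CON (SD, n = 5 each), a log2 fold change of -0.03 ± 0.08 (SE) with an edgeR adjusted p of 0.882. MIA 6 and MIA 7 had 80 and 85.6 CPM and CON 6 had 74.2 CPM. The mRNA level does not measure whether the sensor proteins were bound to RNA.

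**Figure D4:**
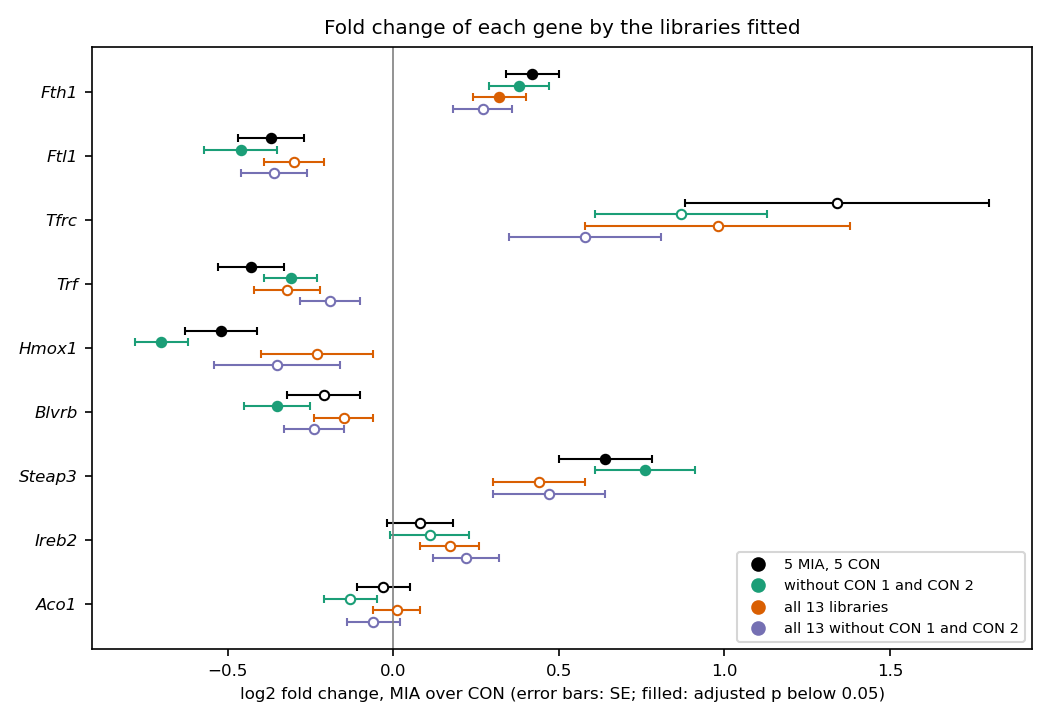
Log2 fold change of each of the 9 genes, MIA over CON, with bars of 1 SE, from edgeR fits on the 5 retained libraries a group, on all 13 libraries, and on each of these sets without CON 1 and CON 2. Filled points passed and open points did not. Fth1, Tfrc, Steap3 and Ireb2 stay above 0 and Ftl1, Trf, Hmox1 and Blvrb below 0 in all 4 fits, while Hmox1 lies at -0.52 in the first fit and at -0.23 with all 13 libraries.

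Levels of different genes can be set in order once divided by exon length. Per kilobase of exon, the mean level in MIA was 4148 CPM for Ftl1, 1576 for Fth1, 285 for Trf, 95 for Hmox1, 81.6 for Tfrc, 38.8 for Blvrb, 20.9 for Aco1, 6.4 for Ireb2 and 5.92 for Steap3. In CON, Ftl1 stood at 5359.5 CPM per kilobase, Fth1 at 1178, Trf at 385, Hmox1 at 137, Blvrb at 45, Tfrc at 32.3, Aco1 at 21.4, Ireb2 at 6.03 and Steap3 at 3.81. Ferritin chains thus headed the order in both groups. Tfrc stood above Blvrb in MIA and below it in CON. Neighbours in the order whose libraries overlapped were Hmox1 with Tfrc and Ireb2 with Steap3 in MIA, and Blvrb with Tfrc and Tfrc with Aco1 in CON.

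Across the 11 libraries other than CON 1 and CON 2, Fth1 ran with Steap3 and Tfrc and against Ftl1 and Hmox1. Pearson's r of log2 CPM was 0.94 between Fth1 and Steap3, 0.82 between Fth1 and Tfrc, and 0.87 between Tfrc and Steap3. It was -0.73 between Fth1 and Ftl1, -0.82 between Fth1 and Hmox1, and -0.85 between Ftl1 and Tfrc. Trf ran with Blvrb, at 0.95, and with Hmox1, at 0.81. The sensors were only weakly tied to Fth1, at 0.05 for Ireb2 and -0.32 for Aco1. These values describe libraries of both groups together, so they hold the group difference as well as the cell makeup that the libraries share.

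Over the same 11 libraries, and among 8539 candidate genes with a mean of at least 10 CPM, the genes most like each of the 9 were found by Pearson's r, and up to 2 of them are given. Nearest to Fth1 were Nkd1 (0.985) and Wwtr1 (0.984), to Steap3 Gpd2 (0.982) and Cavin3 (0.978), and to Tfrc Acsl3 (0.972) and Nedd4 (0.968). Ftl1 lay nearest to Capzb (0.987) and Camk1 (0.973), Trf to Blvrb (0.946) and P2rx7 (0.937), Hmox1 to Apoe (0.944) and Man2c1 (0.938), and Blvrb to Fnbp1 (0.959). The sensors had weaker neighbours, Smim8 (0.87) and Taf1 (0.856) for Ireb2 and Rfc3 (0.891) and Ttc37 (0.867) for Aco1.

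Around these 9 genes, 6 lists of related genes held 64 symbols, of which 63 were in the table and 58 could be tested. Of these 58, 3 were higher and 4 lower in MIA, and their median log2 fold change was 0.03. This share is close to that of all genes tested. With all 13 libraries 3 of them were called, beside 4.22% of all genes. Without CON 1 and CON 2 the number was 11, beside 12.2% of all genes. The 7 called genes lay in the lists of iron transport and of heme breakdown and transport.

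In iron transport, 1 of 16 tested genes was higher and 2 were lower in MIA, beside 5.75% and 4.58% of all genes. The median log2 fold change of the list was 0.04. Slc39a8, a metal importer of the ZIP family, averaged 232 ± 40.3 CPM in MIA and 139 ± 31 CPM in CON (SD, n = 5 each), a log2 fold change of 0.74 ± 0.17 with an edgeR adjusted p of 0.0142. Slc11a1, the phagosomal metal transporter NRAMP1 of macrophages, averaged 146 ± 14.1 CPM in MIA and 216 ± 18.2 CPM in CON (SD, n = 5 each), a log2 fold change of -0.56 ± 0.09 with an edgeR adjusted p of 0.00118. Hfe, a partner of the transferrin receptor, averaged 147 ± 12.3 CPM in MIA and 186 ± 12.3 CPM in CON (SD, n = 5 each), a log2 fold change of -0.34 ± 0.08 with an edgeR adjusted p of 0.0115. In all 3 the groups did not overlap, as in 9.95% of all genes tested. They were named because they were called on these same libraries, so this adds no separate evidence. Ferroportin (Slc40a1), the most abundant gene of the list, averaged 589.9 ± 41.4 CPM in MIA and 488 ± 89.6 CPM in CON (SD, n = 5 each), a log2 fold change of 0.27 ± 0.11 that did not pass (edgeR adjusted p = 0.168).

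In heme breakdown and transport, 2 of 12 tested genes were higher and 2 lower in MIA, beside 5.75% and 4.58% of all genes. The median log2 fold change of the list was -0.22. All but Hmox2 of the 4 called genes are transporters. Flvcr2, a choline transporter that has also been linked to heme, averaged 49 ± 11.5 CPM in MIA and 17.2 ± 4.18 CPM in CON (SD, n = 5 each), a log2 fold change of 1.51 ± 0.21 with an edgeR adjusted p of 0.000739. Abcg2, an efflux pump that carries porphyrins among many substrates, averaged 161 ± 15.7 CPM in MIA and 109.8 ± 14.4 CPM in CON (SD, n = 5 each), a log2 fold change of 0.56 ± 0.10 with an edgeR adjusted p of 0.00353. Both are also known from brain endothelium, whose marker sums were higher in MIA as given above, and the part of endothelium in their values was not tested.

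Slc46a1, a folate transporter that also carries heme, averaged 37.8 ± 4.69 CPM in MIA and 55.4 ± 8.45 CPM in CON (SD, n = 5 each), a log2 fold change of -0.55 ± 0.12 with an edgeR adjusted p of 0.00991. Hmox2, the constitutive heme oxygenase, averaged 114 ± 8.98 CPM in MIA and 142 ± 13.1 CPM in CON (SD, n = 5 each), a log2 fold change of -0.31 ± 0.08 with an edgeR adjusted p of 0.0269. So both heme oxygenases were lower in MIA. The most abundant genes of the list did not pass: Lrp1, a receptor for hemopexin and other ligands, had a log2 fold change of -0.39 (edgeR adjusted p = 0.121), and Pgrmc1, a heme-binding membrane protein, one of 0.26 (adjusted p = 0.343).

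**Figure D5:**
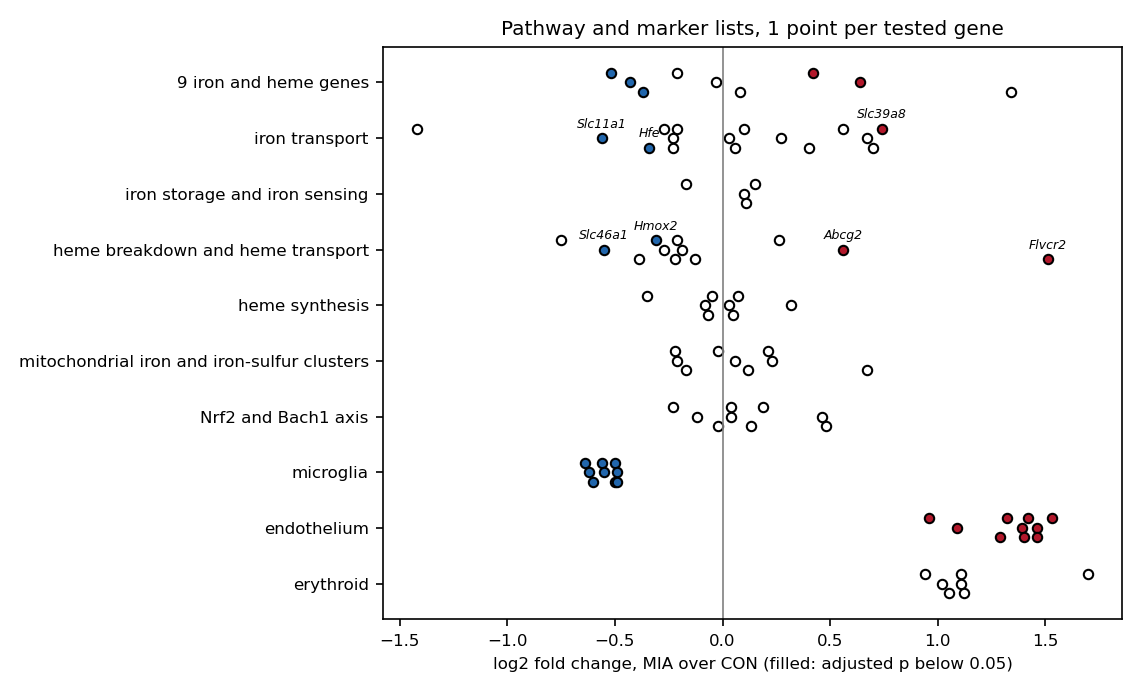
Log2 fold change, MIA over CON, of each tested gene among the 9 genes, in the 6 related lists and in the microglia, endothelium and erythroid marker lists, 1 line of points per list, with called genes filled and those of the related lists named. The 7 called genes of the related lists lie in iron transport and in heme breakdown and transport, from -0.56 (Slc11a1) to 1.51 (Flvcr2).

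The other 4 lists held 0 called genes in edgeR, DESeq2 and limma-voom, and each had 1 gene at an unadjusted edgeR p below 0.05. Of all 15511 genes tested, 3518 were below that level. In iron storage and sensing (4 tested), Ncoa4, the receptor that sends ferritin to lysosomes, averaged 374 ± 19.7 CPM in MIA and 420.5 ± 34.7 CPM in CON (SD, n = 5 each; edgeR adjusted p = 0.192), and Pcbp1, an iron chaperone of ferritin, had a log2 fold change of 0.15 (edgeR adjusted p = 0.85). In heme synthesis (8 tested), Alas1, the first enzyme of the pathway, averaged 143 ± 9.58 CPM in MIA and 138 ± 17.3 CPM in CON (SD, n = 5 each; edgeR adjusted p = 0.799), and Fech, which inserts the iron, had a log2 fold change of 0.03 (edgeR adjusted p = 0.897). In mitochondrial iron and iron-sulfur clusters (9 tested), the cluster scaffold Iscu had a log2 fold change of -0.22 (edgeR adjusted p = 0.112). In the Nrf2 and Bach1 axis (9 tested), a pair of transcription factors known to switch Hmox1 and the ferritin genes on and off, Nfe2l2 (Nrf2) averaged 212 ± 15 CPM in MIA and 215 ± 34.2 CPM in CON (SD, n = 5 each; edgeR adjusted p = 0.943), and its target Txnrd1 had a log2 fold change of 0.19 (edgeR adjusted p = 0.655).

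The antioxidant response element to which Nrf2 binds was looked for near the start sites. RefSeq promoter windows on GRCm38.p6, running 250 bases before to 50 bases after each start, were on hand for 7 of the 9 genes, not for Trf and Hmox1. The word TGACNNNGC on both strands stood in 0 of their 13 windows, and in 12.4% of 32851 windows of all genes. The loop word CAGTGN after the start stood in 1 of the 13, a window of Steap3, and in 7.08% of all. These counts say only which letters these windows hold.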

How the data were processed

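Per the labels, neonatal brain was dissociated with papain at 37 °C without perfusion and libraries followed a modified Smart-Seq2 protocol with a tagmentation kit that does not mark strand. The deposited table holds expected counts, read counts estimated by gene and not scaled between libraries. RSEM, STAR and DESeq2 are named in the submitters' processing notes. The sources used here give no roles, versions, build or annotation. Gene symbols matched 55141 of 55487 IDs with or without version. Of nonzero values 20.6% were not whole, and all were rounded. Tests used R 4.3.3, edgeR 4.0.16 (filterByExpr, TMM, robust fit, group only), 5 retained libraries a group. SE is the absolute log2 fold change over the square root of F. DESeq2 1.42.0 and limma 3.58.1 (voom) were alternatives. Likeness used log2 CPM with a prior count of 2.

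All 9 genes were named whatever they did. From each list, genes past the threshold with at least 4 of 5 MIA libraries on that side of the control median (at most 4 a direction) and the 2 most abundant were named. Some genes this rule takes are not reported here. The 9 genes and the lists were chosen with earlier results of these data known. No label says that libraries came from separate animals, so p-values measure the spread between these libraries. In RefSeq, 0 other genes overlapped any of the 9. The script was tested on simulated counts. A count of 3, the limit a count of 0 allows, was 0.0875 to 0.117 CPM and covers counting error only.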

Additional observations from a re-analysis of the deposited data

Results flagged for a closer look

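In 4 of the 9 genes, both excluded MIA libraries lay above all 5 retained CON libraries. The share of all genes with this pattern was not counted, so whether 4 of 9 is unusual cannot be said. Fth1 had 2043 CPM in the lower of the 2, Tfrc had 314 CPM, Steap3 had 25.9 CPM and Ireb2 had 42.1 CPM. The excluded CON 6 was above the retained CON libraries in 3 of the 4 as well, at 2177 CPM of Fth1, 374 CPM of Tfrc and 32.1 CPM of Steap3, but not in Ireb2, at 31 CPM. These differences were not tested. No retained library lay far from the other 4 of its group by Dixon's 95% criterion in the 22 groups of values checked, where chance alone would mark about 1 in 20.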

How the results depend on the processing

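No log2 fold change of the called genes reversed, while Aco1, which was called in no fit, ran from -0.13 to 0.03. Over leaving out 1 library, called genes ran from 1037 (without MIA 5; 1057 without MIA 4) to 2263 (without CON 1), calls among the 9 genes from 4 to 6 and called list genes from 6 to 9, against 1602, 5 and 7. With all 13 libraries these were 659, 1 and 3; Ftl1 gave -0.30, Trf -0.32, Hmox1 -0.23 and Steap3 0.44 on the log2 scale. With all 13 but CON 1 and CON 2 they were 90, 0 and 0 in edgeR. In that fit 6 of the 9 genes, 10 list genes and 3152 of all 16050 genes tested had an unadjusted p below 0.05. DESeq2 and voom were not run on that set. Fth1 gave 0.27 there, Ftl1 -0.36, Trf -0.19, Hmox1 -0.35 and Steap3 0.47. Without CON 1 and CON 2 alone, 1966 genes, 6 of the 9 genes and 11 list genes were called and Blvrb gave -0.35. DESeq2 gave 1.33 for Tfrc. Leaving out 1 library gave -0.43 to -0.32 for Ftl1, 1.10 to 1.69 for Tfrc and -0.30 to -0.16 for Blvrb. The causes were not tested. With total counts in place of TMM, 1036 genes were higher and 496 lower (892 and 710 with TMM), and the median of all genes moved to 0.052.

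Same-numbered libraries deviated together with correlations of 0.06 to 0.30, and 1 of 5 control libraries matched its own number best, so the numbers were not taken as pairs. A replicate block called 1524 genes and 6 of the 9 genes, with Tfrc called at 1.57 (edgeR adjusted p = 0.0358).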

Other observations

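Among genes tied to hemoglobin, heme and iron outside cells, Hp, Hpx and Hamp were low, while Cd163 and Lrp1 were not. Lrp1, the receptor for hemopexin named above, averaged 258 ± 54.8 CPM in MIA and 337 ± 46.5 CPM in CON (SD, n = 5 each). Cd163, the macrophage receptor for haptoglobin-bound hemoglobin, averaged 83.2 ± 30.9 CPM in MIA and 91.2 ± 12.9 CPM in CON (SD, n = 5 each; edgeR adjusted p = 0.832). Hp, haptoglobin itself, averaged 2.97 ± 1.02 CPM in MIA and 5 ± 2.79 CPM in CON (SD, n = 5 each; edgeR adjusted p = 0.293). Hpx, the heme scavenger hemopexin, and Spic, a transcription factor of red pulp macrophages, were too low to test, with Spic at 0 to 0.544 CPM in MIA and 0 to 0.916 CPM in CON. Hamp, the iron hormone hepcidin, had 0 counts in all 13 libraries, which allows up to 0.0875 to 0.117 CPM per library. These genes were chosen for naming after their values were seen.

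The ratio of Fth1 to Tfrc CPM was 6.7, 7.27, 6.19, 4.76 and 4.99 in MIA 1 to MIA 5, against 35.8, 18.9, 11.1, 5.84 and 9.22 in CON 1 to CON 5. CON 1 and CON 2 had the highest ratios, and CON 4 lay within the MIA range. In the excluded libraries it was 6.51 and 6.11 in MIA 6 and MIA 7 and 5.82 in CON 6.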
